A study of Mus musculus with 16 samples.

Results

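The TGF-beta (transforming growth factor beta) genes described here are 9 of the 24357 genes tested in mouse liver. They are the ligands Tgfb1, Tgfb2 and Tgfb3, the latent TGF-beta binding proteins Ltbp1 and Ltbp2, the receptors Tgfbr1 and Tgfbr2, and the pathway targets and inhibitors Smad7 and Skil. They were chosen by name, as every probe that is not a control and whose gene name in the scanner files is one of these symbols. This gave 13 probes. All 9 genes were tested, each through its probe with the highest mean signal, and these 9 probes were well above background on all 16 arrays. The other 4 probes, for Tgfb2, Tgfbr1, Tgfbr2 and Skil, served as a check.

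The design asks how a knockout of Lcn2, the gene of the secreted lipocalin 2, bears on the liver's response to repeated injury by CCl4, a solvent that liver cells turn into a toxic radical. RNA from whole liver was hybridized to 1-colour Agilent arrays, 1 array for each sample. There were 4 WT and 3 Lcn2-/- livers in the control groups and 5 WT and 4 Lcn2-/- livers in the CCl4 groups. All came from male BALB/c mice that were 6 to 8 weeks old when treatment began, so that the livers were taken about 4 weeks later. The CCl4 groups received 0.5 ml/kg in corn oil into the peritoneum 2 times per week for 4 weeks and were killed 48 h after the last dose, and both control groups received corn oil. The Lcn2-/- allele was made in another background, 129/Ola crossed with C57BL/6, and was then crossed into BALB/c over many generations. The mice lack Lcn2 in every cell, so no cell type is singled out by the knockout. The labels number the samples of a group but do not say that they are separate animals, so p-values measure the spread between these samples, which may in part be technical.

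TGF-beta is the main signal known to drive hepatic stellate cells, the vitamin A storing pericytes of the liver, to make collagen. Each ligand is secreted inside a latent complex that latent TGF-beta binding proteins tether to the matrix. Once freed it binds the type II receptor Tgfbr2, which activates the type I receptor Tgfbr1, and the Smad proteins carry the signal to target genes that include the feedback inhibitors Smad7 and Skil.

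The tested probes of Tgfb1 and Tgfb2 are shown because the ligands are close relatives and their signals are read apart below. Both are written 5′ to 3′ as in the scanner files, and capitals mark the bases that are the same in both when the probes are laid side by side without gaps.
Tgfb1: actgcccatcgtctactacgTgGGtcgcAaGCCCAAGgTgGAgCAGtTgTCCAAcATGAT
Tgfb2: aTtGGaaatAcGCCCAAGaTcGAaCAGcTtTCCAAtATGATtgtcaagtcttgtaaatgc
The probes share 28 of the 41 bases over which they overlap, or 68.3%. The Tgfb1 probe lies at chr7:26489877-26489936 (plus strand, mm9) and the Tgfb2 probe at chr1:188449333-188449392 (minus strand, mm9). The second Tgfbr2 probe (chr9:115999496-115999555, minus strand, mm9) is shown because it reads another stretch of the receptor's transcript than the tested probe, and the capitals mark a TAG at its end, a stop codon in 1 of the probe's reading frames.
Tgfbr2: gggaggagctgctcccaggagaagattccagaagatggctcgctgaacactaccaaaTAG

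On each array 51.6% to 60.9% of spots exceeded background clearly, and the processed signal had a 75th percentile between 842 and 2067. The 6 hepatocyte markers were detected on all 16 arrays. The Lcn2 signal, on a log2 scale, was 13.79 to 17.57 in WT and 10.47 to 12.25 in Lcn2-/- livers, with no overlap. The highest value, 17.57, was that of WT control replicate 3. The other WT controls measured 13.79 to 14.69 and the WT CCl4 arrays 14.22 to 16.48. Slide 1 held all 7 controls and WT CCl4 replicate 1, while slide 2 held the other CCl4 arrays, so slide and treatment cannot be told apart in Lcn2-/- livers. All Lcn2-/- arrays and WT CCl4 replicate 1 lay in the lower row of a slide and the other WT arrays in the upper row, so within a slide genotype and row cannot be told apart except through that array. The control arrays numbered 3 stood apart from their groups. Summed over 7 macrophage markers, their signal was 223400 in WT and 216700 in Lcn2-/-, against 80460 to 106100 on the other 5 control arrays and 82120 to 107800 on the 9 CCl4 arrays. Calls among the 9 genes that these arrays change are given with and without them.

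In WT livers, 7 of the 9 genes were higher with CCl4 at a limma adjusted p under 0.05, and none was lower. Of all genes tested 16.8% passed, with 8.01% higher and 8.8% lower. The changed genes were Ltbp2, Tgfb3, Ltbp1, Tgfbr2, Tgfb2, Tgfbr1 and Skil, in order of their log2 difference. In Lcn2-/- livers 5 of the 9 genes were higher and none was lower, where 12.2% of all genes passed, with 6.57% higher and 5.61% lower. These were Ltbp2, Tgfb3, Ltbp1, Tgfb2 and Tgfbr2, each of which also rose in WT. The median log2 difference of the 9 genes was 1.19 in WT and 1.24 in Lcn2-/-, where the median over all genes was -0.03 and -0.02. Without both control arrays numbered 3, 8 genes were called in WT and 6 in Lcn2-/-, and the share of all genes called was also larger, at 22.4% and 15.1%. Because whole liver was measured, more cells of a type and more RNA per cell cannot be told apart in any of these values.

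**Figure D1:**
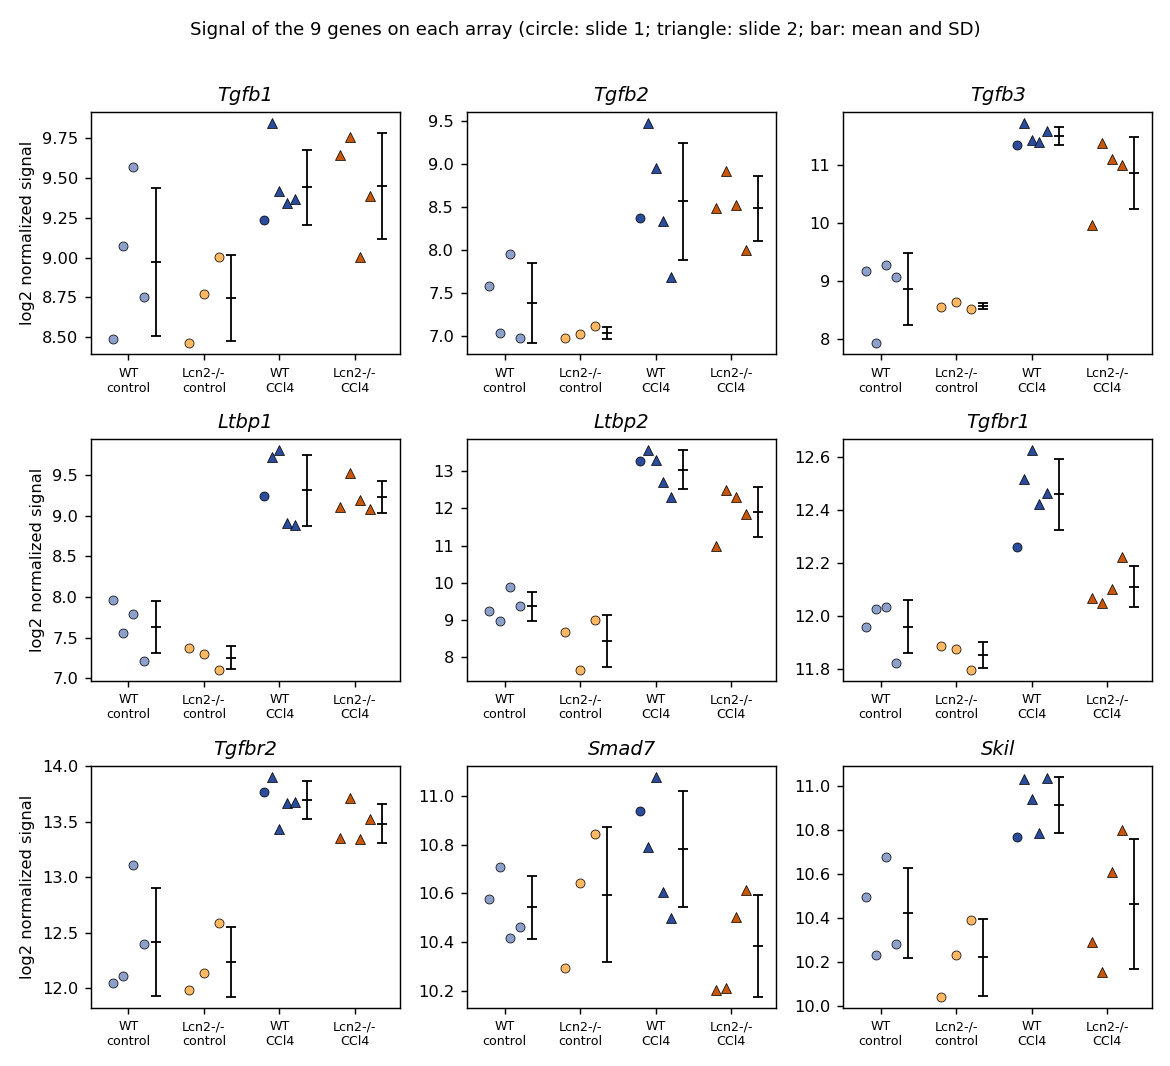
Log2 normalized signal of the 9 genes on each of the 16 arrays, by group, with circles for slide 1 and triangles for slide 2 and bars for the mean and SD. Tgfb3, Ltbp1, Ltbp2, Tgfbr1 and Tgfbr2 separate the control from the CCl4 arrays in both genotypes, while Smad7 does not in either.

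Among the ligands, Tgfb3, known for its part in closure of the palate, had the largest difference. Its log2 signal was 9.17, 7.94, 9.27 and 9.07 in WT control livers and 11.34, 11.72, 11.43, 11.38 and 11.58 after CCl4. The lowest WT CCl4 array was above the highest WT control, with 1 control, replicate 2, well below the other 3. The means were 8.86 ± 0.62 (SD, n = 4) and 11.49 ± 0.16 (n = 5), a rise of 2.63 ± 0.28 (SE) on the log2 scale or 6.18-fold (limma adjusted p = 3.22e-05). In Lcn2-/- livers the controls measured 8.56, 8.64 and 8.52 and the CCl4 arrays 9.97, 11.37, 11.10 and 10.997. All 4 CCl4 arrays lay above all 3 controls, and replicate 1 was the lowest of the 4. This rise was 2.29 ± 0.32, or 4.87-fold (adjusted p = 0.000435).

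Tgfb2, a ligand known in development of the heart and skeleton, rose in both genotypes but with a wide spread. The WT controls measured 7.59, 7.03, 7.95 and 6.97 and the WT CCl4 arrays 8.38, 9.49, 8.96, 8.34 and 7.69. CCl4 replicate 5 lay below control replicate 3, so the groups overlapped. The log2 difference was 1.19 ± 0.31, or 2.27-fold (adjusted p = 0.0184). In Lcn2-/- the controls lay close together, at 6.98, 7.02 and 7.11, and the CCl4 arrays measured 8.49, 8.93, 8.53 and 8.003. Here the groups did not overlap, and the difference was 1.45 ± 0.36, or 2.73-fold (adjusted p = 0.0158). The second Tgfb2 probe, at chr1:188447534-188447593 (minus strand, mm9), was higher by 1.57 ± 0.29 in WT (adjusted p = 0.00194). On no Lcn2-/- control was it well above background, so its Lcn2-/- rise is at least 2.52-fold (adjusted p = 0.0021). The call in WT was lost when WT control replicate 2 or 4 was left out (adjusted p = 0.0669 and 0.0576), and that in Lcn2-/- without Lcn2-/- control replicate 1 or 2 (0.0599 and 0.0572).

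Tgfb1, the ligand best known for activating stellate cells, did not pass the threshold in either genotype. Its WT controls measured 8.49, 9.07, 9.57 and 8.75, and the WT CCl4 arrays 9.24, 9.85, 9.42, 9.34 and 9.37. Control replicate 3 lay above 4 of the 5 CCl4 arrays. The log2 difference was 0.47 ± 0.22 (adjusted p = 0.157). In Lcn2-/- the controls were 8.46, 8.77 and 9.003 and the CCl4 arrays 9.65, 9.76, 9.005 and 9.39. The lowest CCl4 array and the highest control, replicate 3 in each case, were almost level, though the groups did not overlap. That difference was 0.70 ± 0.25 (adjusted p = 0.0806). Without both control arrays numbered 3, the differences were 0.67 in WT (adjusted p = 0.0289) and 0.83 in Lcn2-/- (adjusted p = 0.0327), and both passed. Leaving out WT control replicate 3 alone also gave calls (0.0309 in WT and 0.0439 in Lcn2-/-), as did Lcn2-/- CCl4 replicate 3 for Lcn2-/- (0.0488).

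**Figure D2:**
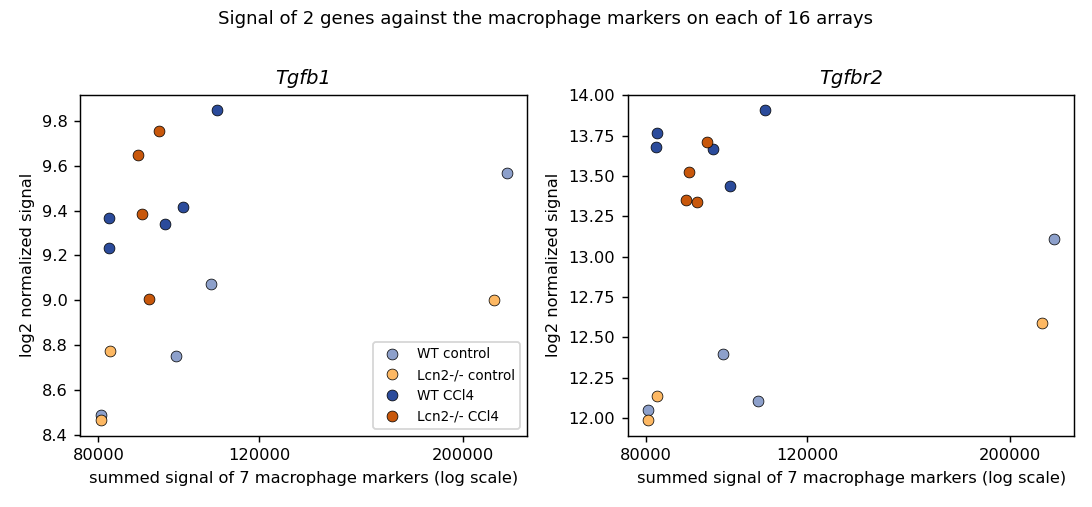
Log2 normalized signal of Tgfb1 (left) and Tgfbr2 (right) against the summed signal of 7 macrophage markers on a log scale, 1 point for each of the 16 arrays and 1 colour for each group. The control arrays numbered 3, at 223400 and 216700 on the horizontal axis, hold the highest control value of both genes in each genotype. They also do so for Tgfb2, Ltbp2 and Skil, which are not drawn, so this is not particular to the genes shown. A link to the macrophage markers was not tested.

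The largest difference of the 9 was that of Ltbp2, a microfibril protein of the binding protein family that, unlike its relatives, is not known to hold the latent ligand. In WT controls it measured 9.25, 8.96, 9.88 and 9.38, and after CCl4 13.28, 13.58, 13.31, 12.69 and 12.31. Every CCl4 array was more than 2 log2 units above every control. The WT rise was 3.66 ± 0.36, or 12.7-fold (limma adjusted p = 1.47e-05), which ranked 50 of 24357 genes. In Lcn2-/- the controls measured 8.68, 7.66 and 8.99 and the CCl4 arrays 10.99, 12.49, 12.30 and 11.85, again with no overlap. That rise was 3.46 ± 0.40, or 11.02-fold (adjusted p = 9.82e-05), rank 59. The tested probe lies at chr12:86124167-86124226 (minus strand, mm9).

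Ltbp1, which binds the latent form of the ligands covalently, rose as well. WT controls measured 7.96, 7.56, 7.79 and 7.22 and WT CCl4 arrays 9.24, 9.72, 9.81, 8.91 and 8.88. The Lcn2-/- controls measured 7.37, 7.30 and 7.11, and the CCl4 arrays 9.11, 9.53, 9.20 and 9.09. The groups stood apart in both genotypes, by almost 1 log2 unit in WT and by more than that in Lcn2-/-. The differences were 1.68 ± 0.21 in WT, or 3.21-fold (adjusted p = 9.27e-05), and 1.97 ± 0.24 in Lcn2-/-, or 3.93-fold (adjusted p = 0.000129). Its probe lies at chr17:75790530-75790589 (plus strand, mm9). Ltbp1 and Ltbp2 kept both calls in every alternative run.

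Promoter sequences of 6 of the 9 genes, 8 in all, were matched in RefSeq (GRCm38.p6), and the 250 bases before the start were searched on both strands. The search covered CAGACA, to which Smad proteins bind, TGANTCA, the AP-1 motif, and GTCTAGAC, the palindromic Smad motif. CAGACA and GTCTAGAC share the letters AGAC. The first motif was found in 3 of the 8 promoters (Tgfb2, the second start of Tgfbr1 and the second start of Ltbp1), where 17.1% of 32851 promoters hold it, and TGANTCA and GTCTAGAC in none, where 6.75% and 0.167% do. A match is a description of these letters and not of binding. The first start of Ltbp1 and that of Tgfbr1 hold no match. The promoters of Tgfb2 and of the second start of Ltbp1 are printed as examples that hold the motif from genes that rose in both genotypes, and that of Ltbp2 because it rose most, with motif letters in capitals.
Tgfb2 (chr1:186705990-186706239, minus strand): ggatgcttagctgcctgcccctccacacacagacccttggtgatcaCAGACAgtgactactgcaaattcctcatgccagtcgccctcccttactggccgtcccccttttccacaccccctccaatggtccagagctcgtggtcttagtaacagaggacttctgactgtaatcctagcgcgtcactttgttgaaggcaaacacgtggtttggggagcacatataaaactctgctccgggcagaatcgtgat
Ltbp1, second start (chr17:75178531-75178780, plus strand): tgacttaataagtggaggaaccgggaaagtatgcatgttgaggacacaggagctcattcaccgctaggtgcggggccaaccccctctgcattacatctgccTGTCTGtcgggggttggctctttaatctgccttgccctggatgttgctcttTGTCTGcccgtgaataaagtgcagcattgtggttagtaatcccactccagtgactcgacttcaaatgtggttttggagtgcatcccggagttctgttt
Ltbp2 (chr12:84876492-84876741, minus strand): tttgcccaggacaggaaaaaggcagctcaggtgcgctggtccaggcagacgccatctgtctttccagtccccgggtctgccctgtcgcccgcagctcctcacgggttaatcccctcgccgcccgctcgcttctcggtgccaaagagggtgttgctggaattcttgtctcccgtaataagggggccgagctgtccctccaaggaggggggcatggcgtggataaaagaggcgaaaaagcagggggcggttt

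Tgfbr2, the receptor that binds the ligand, was higher in both genotypes. WT controls measured 12.05, 12.11, 13.11 and 12.39 and WT CCl4 arrays 13.77, 13.91, 13.44, 13.66 and 13.68. Among Lcn2-/- livers the controls were 11.99, 12.14 and 12.59 and the CCl4 arrays 13.35, 13.71, 13.34 and 13.53. Control replicate 3 was the highest control in each genotype and still lay below every CCl4 array. The log2 differences were 1.28 ± 0.20, or 2.42-fold (adjusted p = 0.000533), and 1.24 ± 0.23, or 2.37-fold (adjusted p = 0.0026). The second probe, whose sequence is printed above, gave 1.39 ± 0.22 (adjusted p = 0.000623) and 1.45 ± 0.25 (adjusted p = 0.00197). The tested probe lies at chr9:115997155-115997214 (minus strand, mm9).

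Tgfbr1, the kinase that phosphorylates Smad2 and Smad3, differed little between groups. In WT it measured 11.96, 12.03, 12.03 and 11.82 in controls and 12.26, 12.52, 12.63, 12.42 and 12.47 after CCl4. These groups did not overlap, and the rise was 0.50 ± 0.09, or 1.41-fold (adjusted p = 0.00169). In Lcn2-/- the controls were 11.89, 11.88 and 11.80 and the CCl4 arrays 12.07, 12.05, 12.10 and 12.22, also without overlap, but the difference of 0.26 ± 0.10 did not pass (adjusted p = 0.123). The second probe, well above background on 12 of 16 arrays, gave 0.24 ± 0.42 in WT (adjusted p = 0.747) and 0.41 ± 0.47 in Lcn2-/- (adjusted p = 0.622). The mean of both probes did not pass in WT (0.37, adjusted p = 0.253). The tested probe lies at chr4:47427736-47427795 (plus strand, mm9).

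Of the inhibitors, Skil passed in WT and not in Lcn2-/-, and the test of the difference between the responses is given with the interaction. Skil, a nuclear corepressor of Smad complexes, measured 10.50, 10.23, 10.68 and 10.28 in WT controls and 10.77, 11.03, 10.94, 10.79 and 11.04 after CCl4. No arrays overlapped, though the gap was less than 0.1 log2 unit, and the rise was 0.49 ± 0.14, or 1.41-fold (adjusted p = 0.0304). In Lcn2-/- the controls were 10.04, 10.23 and 10.39 and the CCl4 arrays 10.29, 10.15, 10.61 and 10.80, which overlapped (0.24 ± 0.16, adjusted p = 0.364). That difference depends on single arrays: it was smaller without CCl4 replicate 4, the highest of them, and larger without replicate 2, the lowest. The second Skil probe gave 0.66 ± 0.18 in WT (adjusted p = 0.0225). In Lcn2-/- no control array held that probe well above background, and its difference did not pass (at least 1.2-fold, adjusted p = 0.105). The WT call of the tested probe was lost without WT control replicate 1, 2 or 4 (adjusted p = 0.0617, 0.103 and 0.081) and without WT CCl4 replicate 2, 3 or 5 (0.0672, 0.053 and 0.0623). The tested probe lies at chr3:31021203-31021262 (plus strand, mm9).

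Smad7, which binds the type I receptor and blocks the Smads, passed in neither genotype. Its signal ranged from 10.42 to 10.71 in WT controls and from 10.50 to 11.08 after CCl4, and from 10.29 to 10.84 and from 10.20 to 10.61 in Lcn2-/-. Control and CCl4 arrays overlapped throughout. The log2 difference was 0.24 ± 0.15 in WT (adjusted p = 0.297) and -0.21 ± 0.17 in Lcn2-/- (adjusted p = 0.455). The Lcn2-/- value was -0.09 without Lcn2-/- control replicate 3 and -0.36 without replicate 1. The probe lies on chromosome 18 from 75555371 to 75555430 (plus strand, mm9).

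**Figure D3:**
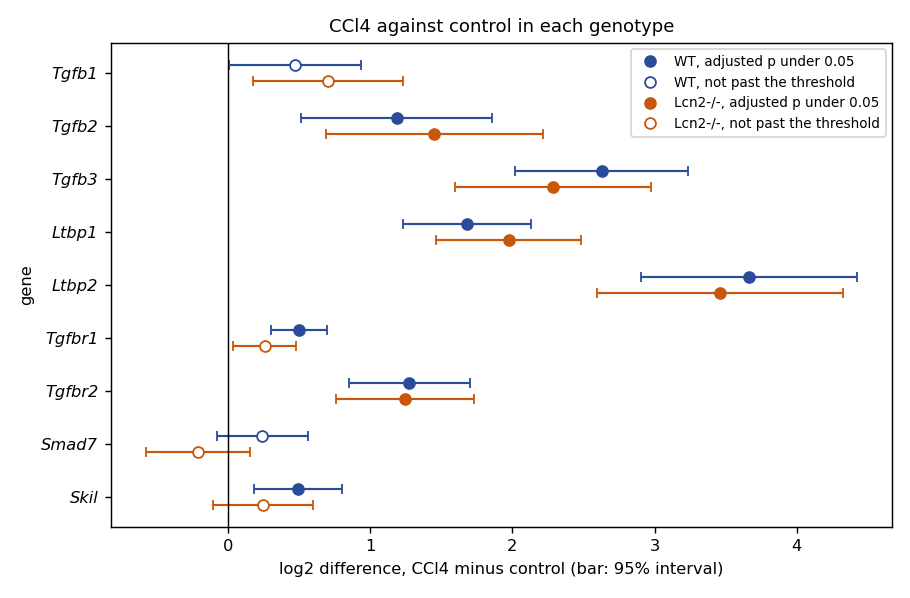
Log2 difference of CCl4 minus control for the 9 genes in WT (blue) and Lcn2-/- (orange), with 95% intervals from limma. Filled points passed an adjusted p of 0.05. Ltbp2 stands farthest to the right, at 3.66 in WT and 3.46 in Lcn2-/-.

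The control and CCl4 arrays of 6 genes did not overlap in WT, and those of 7 genes in Lcn2-/-, where 17.4% and 24.8% of all genes did not overlap. With slide as a fixed block, which rests on WT CCl4 replicate 1 alone, 4 genes passed in WT (Ltbp2, Tgfb3, Ltbp1 and Tgfbr2) and 2 in Lcn2-/- (Ltbp2 and Ltbp1), where 5.35% and 1.74% of all genes passed. Within slide 1, that array against the WT controls gave 3.91 for Ltbp2 (adjusted p = 0.0193) and 1.61 for Ltbp1 (adjusted p = 0.0384), and no other of the 9 passed, where 2.89% of all genes did. The spread in that fit comes from the control arrays, and the lone CCl4 array is assumed to vary as they do.

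Of the 7 stellate cell markers, 6 were higher with CCl4 in each genotype, among them Lrat, which stores retinol as esters, and Pdgfrb, the receptor for platelet-derived growth factor. For this and the counts below, 8.01% of all genes were higher and 8.8% lower in WT, and 6.57% and 5.61% in Lcn2-/-. Summed over the 7 markers, the signal was 21210 to 25910 in WT controls and 28740 to 35800 after CCl4, and 19050 to 23780 and 30100 to 31780 in Lcn2-/-. Colec11, the marker that did not pass (0.12 in WT and 0.34 in Lcn2-/-), holds most of this sum, so the sum does not stand for the class. All 7 were well above background on all 16 arrays. Without both control arrays numbered 3, 5 of the 7 were higher in WT and 6 in Lcn2-/-, where 22.4% and 15.1% of all genes were called. The part of these cells in the results for the 9 genes was not tested. The 7 macrophage markers did not move as 1 group: Cd68 was higher in both genotypes, while Clec4f and Timd4, which mark resident Kupffer cells, fell in WT. The 6 bile duct markers had a summed signal of 5885 to 21890 in WT controls against 19740 to 30920 after CCl4, and 6714 to 11270 against 16060 to 34580 in Lcn2-/-. Of these 6 markers, 1 passed in each genotype, Spp1 (osteopontin, 1.67 and 2.10), while Epcam was -0.09 and 0.42 and Cftr was -0.18 in both, so the sum does not stand for the class. Their part was not tested. Of 4 mesothelial markers 2 were higher in WT and 1 in Lcn2-/-, and of 6 portal fibroblast and smooth muscle markers 1, Eln (elastin), was higher in both. Of 6 T cell markers 2 were lower in WT and 1 in Lcn2-/-. Of 7 sinusoidal endothelial markers 1 was higher and 1 lower in WT and 1 was higher in Lcn2-/-, and none of 5 platelet markers passed. A list with 1 marker called in a direction is not set apart from all genes by that count. The part of these cells was not tested either. None of the 6 hepatocyte markers passed in either genotype, and their summed signal ranged from 1663000 to 1966000 over all 16 arrays.

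The other genes of the pathway were counted from lists chosen for their roles. Among 10 tested genes of latency and activation, 5 were higher in WT and in Lcn2-/- alike, and none was lower, where 8.01% and 6.57% of all genes were higher. Thbs1, thrombospondin 1, which frees TGF-beta from its latent complex, rose by 2.27 ± 0.42 in WT (adjusted p = 0.00209) and 2.34 ± 0.48 in Lcn2-/- (adjusted p = 0.00572). Ltbp3, another latent TGF-beta binding protein, rose by 2.07 ± 0.15 and 2.16 ± 0.17, and Fbn1, fibrillin 1, to which the binding proteins attach, by 1.69 ± 0.21 and 2.15 ± 0.24. Emilin1, an extracellular matrix protein that limits ligand processing, rose by 1.43 ± 0.22 and 1.75 ± 0.25. The fifth, Lrrc32, which anchors latent ligand at the cell surface and was named after its values were seen, rose by 1.42 ± 0.15 in WT and by 1.11 ± 0.17 in Lcn2-/-. None of the 4 tested co-receptors and accessory receptors, which include Eng and Tgfbr3, passed in either genotype. Without both control arrays numbered 3, 1 of these 4 was higher in WT and 0 in Lcn2-/-. Of the latency genes, 6 were then higher in WT and 5 in Lcn2-/-. In those fits 22.4% and 15.1% of all genes were called.

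Of 18 Smads and their regulators, 1 was higher and 2 were lower in WT, and 2 were higher in Lcn2-/-, shares close to the 16.8% and 12.2% of all genes. Pmepa1, a membrane protein that takes Smads out of signalling, rose in both, by 1.59 ± 0.19 (adjusted p = 7.81e-05) and 1.73 ± 0.22 (adjusted p = 0.000184). Ski, the close relative of Skil, rose in Lcn2-/- by 0.97 ± 0.20 (adjusted p = 0.00559). In WT, Smurf1, a ubiquitin ligase for Smads, fell by 0.39 on the log2 scale (adjusted p = 0.0307), and Zfyve9, which anchors Smad2 at the receptor, fell by 0.52 (adjusted p = 0.0477). None of the 7 Smad genes on the list passed in either genotype.

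Of 20 target genes, 9 were higher in WT and 8 in Lcn2-/-, with none lower, where 8.01% and 6.57% of all genes were higher. Their median log2 difference was 0.98 and 0.65. Col1a1, a chain of type I collagen, rose by 3.49 ± 0.45 in WT (adjusted p = 0.000133) and 4.21 ± 0.52 in Lcn2-/- (adjusted p = 0.000144). Its log2 signal was 12.20 ± 1.25 (SD, highest 13.98) in WT controls and 10.495 ± 0.17 in Lcn2-/- controls. After CCl4 it was 15.69 ± 0.51 in WT and 14.70 ± 0.42 in Lcn2-/-. The larger Lcn2-/- rise thus started from a lower control mean. Col1a2 (2.89 ± 0.41 and 2.98 ± 0.46) and Col3a1 (2.64 ± 0.32 and 3.20 ± 0.36) rose as well. Cdkn1a, an inhibitor of the cell cycle, rose in Lcn2-/- (2.66 ± 0.78, adjusted p = 0.0387) and was 1.91 ± 0.68 in WT (adjusted p = 0.071). Lox, the collagen crosslinking enzyme, passed in WT (adjusted p = 0.0439) but was well above background on 1 of 4 WT controls. Its call, counted among the 9, therefore rests mostly on control values near background, and the size of its rise is not given. Acta2, smooth muscle actin, is given because it is widely used as a readout, a choice made after its values were seen, and gave no call in either genotype (0.36 ± 0.44 in WT and 0.39 ± 0.50 in Lcn2-/-). Without both control arrays numbered 3, 12 targets were higher and 1 lower in WT, and 8 were higher in Lcn2-/-, where 22.4% and 15.1% of all genes were called.

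Of 29 tested genes of the BMP and activin branch, 4 were higher and 1 was lower in WT, and 4 were higher and 2 lower in Lcn2-/-, with a median of -0.07 in both. Of all genes 16.8% and 12.2% were called, so these counts do not set the branch apart. The extracellular antagonist Fstl1 rose by 1.89 ± 0.23 and 1.90 ± 0.26, and Fstl3 rose by 1.19 ± 0.30 in WT (adjusted p = 0.014) and at least 2.76-fold in Lcn2-/- (adjusted p = 0.00238), where it was below that level on all controls. Fst, follistatin, rose in WT by 1.77 ± 0.36 (adjusted p = 0.00353), and Bmp7 rose in Lcn2-/- by 1.15 ± 0.26 (adjusted p = 0.00936). Gdf2, which encodes the ligand BMP9, rose by 0.62 ± 0.13 and 0.91 ± 0.15. Inhbe, an activin subunit made by hepatocytes, fell in both genotypes, by 0.49 in WT (adjusted p = 0.0336) and by 0.87 in Lcn2-/- (adjusted p = 0.00327), and Acvr2b, an activin receptor, fell in Lcn2-/- by 0.56 (adjusted p = 0.0396).

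**Figure D4:**
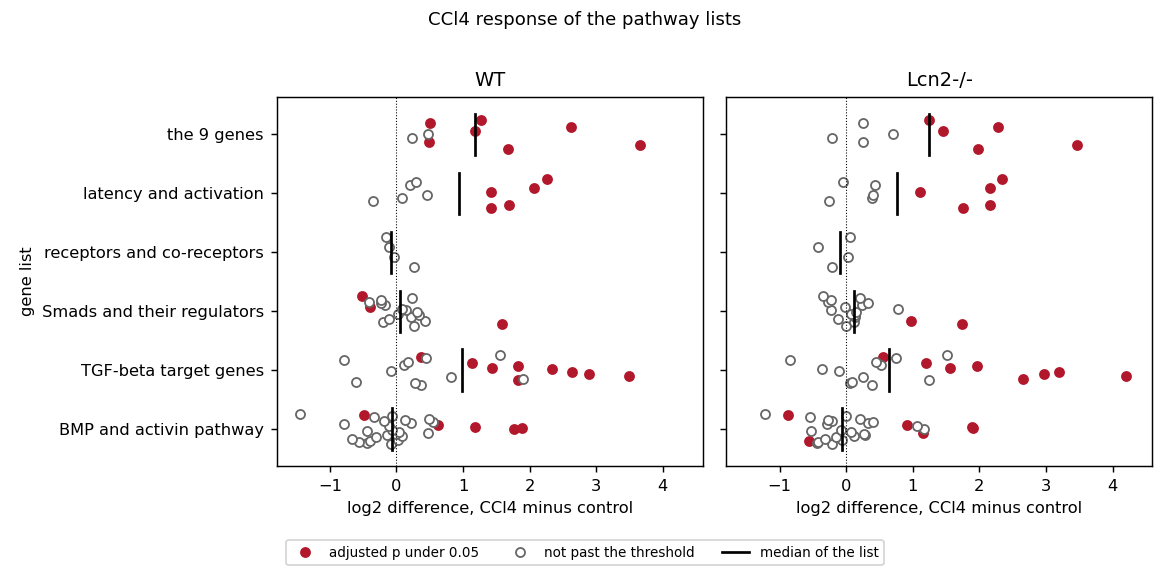
Log2 difference of CCl4 minus control for the 9 genes and 5 lists of pathway genes in WT (left) and Lcn2-/- (right), each point a gene. Filled points passed an adjusted p of 0.05 and black bars mark the median of the list. The medians of the target list, 0.98 and 0.65, and the latency list, 0.94 and 0.77, lie to the right of 0, while those of the receptor and BMP lists lie close to 0.

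Between genotypes under CCl4, none of the 9 genes passed (limma), where 0.636% of all genes did, 0.304% higher and 0.333% lower. The unadjusted p was under 0.05 for 5 of the 9, all lower in Lcn2-/- (Ltbp2, Tgfb3, Skil, Smad7 and Tgfbr1), and for 3335 of all 24357 genes. The mean was lower in Lcn2-/- for 8 genes, with a median of -0.35. Tgfbr1 had the clearest separation: its 4 Lcn2-/- arrays, at most 12.22, lay below its 5 WT arrays, at least 12.26, a difference of -0.35 ± 0.09 (adjusted p = 0.118, exact two-sided permutation p = 0.0159). The second Tgfbr1 probe overlapped, at -0.21 ± 0.42 (adjusted p = 0.874), and the mean of both probes was -0.28 (adjusted p = 0.597). By its tested probe it was the 1 gene of the 9 whose groups did not overlap, as 5.66% of all genes did not. Ltbp2 was lower by 1.13 on the log2 scale, with a 95% interval from -1.89 to -0.37 (adjusted p = 0.19). Tgfb3 differed by -0.63 (interval -1.24 to -0.03), but by -0.34 (adjusted p = 0.722) without Lcn2-/- CCl4 replicate 1. Skil differed by -0.45 (interval -0.76 to -0.14). The second Skil probe differed by -0.47 ± 0.18 without overlap (adjusted p = 0.298, exact two-sided permutation p = 0.00794). Smad7 differed by -0.40 (interval -0.72 to -0.08). Tgfbr2 differed by -0.21 and its second probe by 0.05 ± 0.22 (adjusted p = 0.942), so the probes differed in sign. Tgfb1 differed by 0.01, with an interval from -0.46 to 0.47. Array weights gave 1 call, that of Tgfbr1 (-0.37, adjusted p = 0.0452), where 1.33% of all genes passed.

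In controls, none of the 9 genes passed, where 0.53% of all genes did (0.238% higher and 0.291% lower), and 1 had an unadjusted p under 0.05, against 2021 of all genes. That gene was Ltbp2, at 8.45 ± 0.70 (n = 3) in Lcn2-/- and 9.37 ± 0.38 (n = 4) in WT, a difference of -0.93 with an interval from -1.79 to -0.06 (adjusted p = 0.541). Without Lcn2-/- control replicate 2 that difference was -0.53 (adjusted p = 1). The other differences lay between -0.37 (Ltbp1) and 0.05 (Smad7), and the genotypes overlapped for all 9, as they did not for 9.64% of all genes. The labels do not pair the control arrays. Matched by replicate number, Lcn2-/- was lower at each shared number for Tgfb1, Tgfb2, Tgfbr1, Ltbp1, Ltbp2 and Skil, at times barely. For Skil, replicate 2 measured 10.231 in WT and 10.23 in Lcn2-/-. Tgfb3, Tgfbr2 and Smad7 went both ways. How many of all genes keep 1 sign in this way was not counted, so these signs do not set the genes apart. With the replicate number as a block none of the 9 passed, where 0.378% of all genes did. The genotype comparisons and the responses share arrays, so their values are given side by side. The mean of Ltbp2 differed by -0.93 in controls and by -1.13 under CCl4, and neither value passed.

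**Figure D5:**
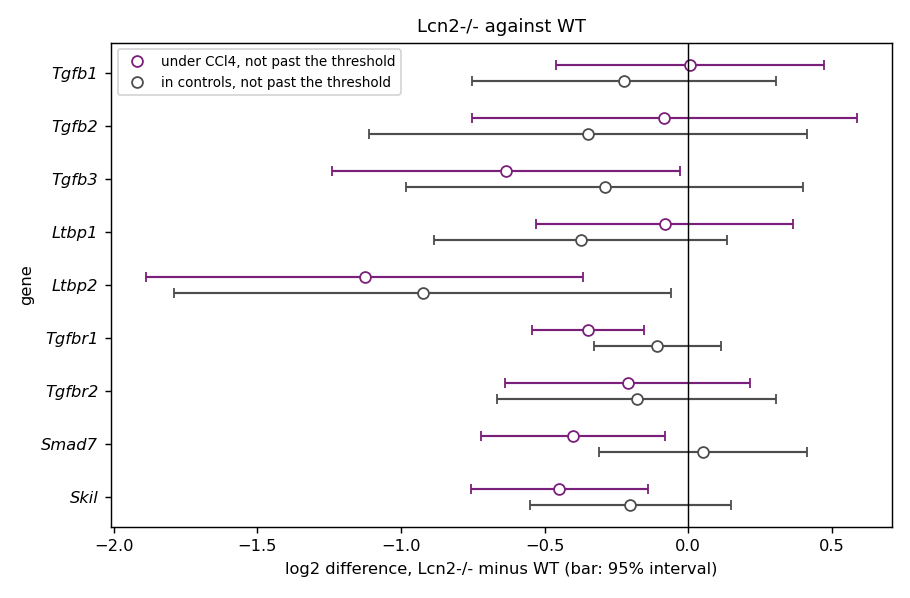
Log2 difference of Lcn2-/- minus WT for the 9 genes under CCl4 (purple) and in controls (grey), with 95% intervals from limma. Open points did not pass an adjusted p of 0.05. Under CCl4 the intervals of 5 genes, Ltbp2, Tgfb3, Skil, Smad7 and Tgfbr1, lie below 0, as that of Ltbp2 does in controls.

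The interaction, which asks whether the Lcn2-/- response differs from the WT response, passed for none of the 9 genes by limma, where 0.0534% of all genes passed, 0.0205% higher and 0.0328% lower. None had an unadjusted p under 0.05, as 811 of all genes did. Smad7 came nearest, at -0.45 with an interval from -0.94 to 0.03 (unadjusted p = 0.0639, adjusted p = 1.00). Tgfb1 was 0.23 with an interval from -0.48 to 0.94, and ranged from 0.03 (without WT control replicate 3) to 0.39 when 1 array was left out. Ltbp2 was -0.20 with an interval from -1.35 to 0.95, and ranged from -0.59 (without Lcn2-/- control replicate 2) to 0.10 (without Lcn2-/- CCl4 replicate 1). Of the 2 genes called in WT and not in Lcn2-/-, Skil was -0.25 ± 0.22 and Tgfbr1 was -0.24 ± 0.14 (SE), so their responses were not shown to differ. The size of the Skil value was smaller without Lcn2-/- CCl4 replicate 2 and larger without replicate 4.

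Between genotypes, 1 of the 18 Smads and regulators was lower under CCl4 and 1 in controls, 1 of the 29 BMP and activin genes was lower under CCl4, and no gene of the other 3 lists passed in either comparison. Of all genes 0.636% passed under CCl4 (0.333% lower) and 0.53% in controls (0.291% lower). Nedd4l, a ubiquitin ligase that acts on Smads and receptors, was lower in Lcn2-/- than in WT under CCl4 by 0.54 on the log2 scale (adjusted p = 0.0376), and Inhbe was lower by 1.15 (adjusted p = 0.00104). In controls the Inhbe difference was -0.76 ± 0.17 (adjusted p = 0.0649). Its interaction was -0.39 ± 0.22 and did not pass, so its genotype difference was not shown to depend on CCl4. Tgif1, a Smad corepressor, was lower in Lcn2-/- controls than in WT controls by 0.78 (adjusted p = 0.038). Without both control arrays numbered 3, 2 Smad regulators were lower under CCl4 and none differed in controls, where 1.05% and 0.632% of all genes passed.

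Across the 16 arrays the 3 genes most like each of the 9 were found by Pearson's r of the log2 level, as a description in which the arrays share the differences between groups. The second value of each pair is r after group means were removed. Tgfb1 was most like Ppp1r9b (0.934 and 0.88), Lacc1 (0.93 and 0.894) and Sh3bp1 (0.925 and 0.859). Tgfb2 followed Pcolce (0.959 and 0.888), Cygb (0.956 and 0.96) and Loxl2 (0.955 and 0.853). Tgfb3 tracked Aebp1 (0.989 and 0.89), Htra1 (0.988 and 0.913) and Srpx (0.988 and 0.87). Ltbp1 lay closest to Pdgfra (0.982 and 0.797), Col6a1 (0.982 and 0.82) and Olfml3 (0.98 and 0.746). Ltbp2 lay closest to Ak1 (0.982 and 0.749), Adamts2 (0.982 and 0.757) and Boc (0.981 and 0.789). Tgfbr1 tracked Pcdhb3 (0.943 and 0.598), Fzd1 (0.942 and 0.766) and Galnt9 (0.914 and 0.496). These genes were picked for the highest first value. Tgfbr2 followed Tagln2 (0.987 and 0.922), Gm10731 (0.986 and 0.916) and Vsir (0.98 and 0.905). Smad7 was most like Rnf207 (0.809 and 0.735), ENSMUST00000100746 (0.786 and 0.719) and E130101M22 (0.779 and 0.747). Skil was nearest to Grrp1 (0.938 and 0.867), Stx12 (0.921 and 0.794) and Golt1b (0.92 and 0.86). Among the 9 genes, Tgfb2 and Ltbp1 varied together also inside the groups (0.93 and 0.83), while Tgfb3 and Ltbp2 had 0.96 and 0.57. The r of Smad7 with the other 8 lay between 0.00 and 0.53.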

How the data were processed

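RNA of 16 mouse livers was measured on 1-colour Agilent arrays. Per the file headers, the scanner files deposited by the authors hold spot intensity on a linear scale, background-subtracted by the image software and not normalized between arrays. A second file from the authors holds log2 values for these arrays and served as an alternative. Groups and replicate numbers came from the labels.

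The log2 processed signal of 59305 gene spots was quantile normalized, and spots marked as outliers were then removed. Spots of 1 probe were averaged. A probe was kept if 3 or more arrays had it well above background, and the probe with the highest mean was taken for each gene, giving 24357 genes. Accessions of 49.8% of gene spots matched RefSeq, used for names. Exon and UTR positions of the probes were not analysed here. One limma model (limma 3.58.1, R 4.3.3) over the 4 groups gave the CCl4 response in each genotype, Lcn2-/- against WT under CCl4 and in controls, and the interaction. P-values were adjusted by Benjamini-Hochberg over all genes within a contrast, with a threshold of 0.05. Exact permutation tests were two-sided, and 126 or 35 splits were possible. The number of arrays limits the precision. A fold against a group not well above background is given as a bound, set on each array at the larger of the probe's signal and the lowest signal still well above background.

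The fit was tested on simulated data. Alternatives were other scaling, background correction, filters, probe choice, the authors' table, slide and replicate blocks, array weights, single slides, and leaving out arrays. Leaving out the top 20 rows of spots, and list counts without both control arrays numbered 3, were added after the data were seen. The 9 genes, the lists and the tests were chosen with earlier results of these data known. All 9 genes are named, and of each list up to 4 called genes per direction with the largest change. The labels do not pair the arrays. Deviations from group means of same-numbered control arrays correlated at 0.233, 0.368 and 0.552 over genes. For the other comparisons this r lay between -0.221 and 0.252. Same-numbered controls also share a column of slide 1, so a shared column and a pairing cannot be told apart. The replicate number was therefore used as a block only in an alternative fit. With that block none of the 9 genes was called in controls either.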

Additional observations from a re-analysis of the deposited data

Results flagged for a closer look

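The Tgfb3 signal of WT control replicate 2, at 7.94, lay far from the other 3 WT controls, of which the nearest was 9.07. The gap was 0.848 of the whole range of that group. This was 1 of 27 groups tested, and chance alone marks about 1 in 20. Without this array the WT response of Tgfb3 was 2.32 on the log2 scale (limma adjusted p = 6.06e-05) in place of 2.63.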

How the results depend on the processing

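The number of the 9 genes called stayed at 7 in WT and 5 in Lcn2-/- under 75th percentile scaling, normexp, the authors' log2 table, both filters, without the top 20 rows of spots and with slide as a random block. The mean of probes and a fit of the compared groups alone gave 6 in WT, and array weights 8 and 6, where 29% and 28.6% of all genes were called. Slide as a fixed block gave 4 and 2, slide 1 alone 2 in WT, and array weights called 1 gene under CCl4. Leaving out 1 array gave 5 to 8 in WT, 4 to 6 in Lcn2-/-, and 0 in the other 3 comparisons. In those fits the share of all genes called moved too, from 10.3% to 21% in WT and from 6.91% to 13.1% in Lcn2-/-. The replicate block gave 6 in WT (Skil 0.46, adjusted p = 0.0597) and changed no other call. Deviations of same-numbered WT control and CCl4 arrays correlated at -0.07 to 0.165, and the labels give no pairs. Under 75th percentile scaling the median of all genes moved to -0.16 in WT and -0.14 in Lcn2-/-, and 30.7% and 36.3% of calls were higher, against 47.7% and 53.9%.

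Without 1 array, log2 differences that turned ranged from -0.26 to 0.15 (Tgfbr2 interaction), -0.59 to 0.10 (Ltbp2 interaction), -0.355 to 0.053 (Tgfbr2, controls), -0.073 to 0.20 (Smad7, controls), and under CCl4 from -0.10 to 0.15 (Tgfb1), -0.30 to 0.15 (Tgfb2) and -0.19 to 0.043 (Ltbp1). Others that turned were the Tgfbr2 interaction at 0.03 (75th percentile) and 0.013 (mean of probes), Smad7 in controls at -0.001 (authors' table), -0.15 (array weights) and -0.11 (without both control arrays numbered 3), and Tgfb1 under CCl4 at -0.045 (slide block and slide 2 alone), -0.012 (replicate block) and -0.087 (array weights). None of these was called. The cause was not tested. Signal over background limits the second probes of Tgfb2, Tgfbr1 and Skil.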
